A study of Mus musculus with 10 samples.

Results

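The gene expression of 10 male mouse embryonic stem cell (ESC) lines was examined for the differences that remain between lines of the same genotype. Tdg encodes thymine DNA glycosylase, an enzyme that excises oxidised methylcytosines and T mispaired with G and so acts in active DNA demethylation. The lines carried an intact Tdg (Tdg+/+, n = 3), 1 disrupted copy (Tdg+/-, n = 3) or no intact copy (Tdg-/-, n = 4), and the labels give all of them as C57BL/6 cells grown without serum on gelatin, in medium with 2 kinase inhibitors and LIF (2i and LIF). All were derived anew from blastocysts of simultaneous matings between heterozygous parents and had been grown on inactivated mouse feeder cells, which were removed before RNA was taken. Every line was sequenced as a single library of total RNA. Variation between embryos, cultures and library preparations therefore cannot be told apart, and the labels do not give the mating behind each line. For each of 9634 genes of 35427 in the annotation, those averaging 5 CPM or more over the lines (CPM are the reads of a gene scaled to a common library size), the mean log2 CPM of the line's own genotype was subtracted. The remainder is called the residual, and its standard deviation over the 10 lines (SD, on the log2 scale, with 7 degrees of freedom) measures the spread between lines. No genotype effect was tested, and no spread or correlation below carries a test.

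ESC lines descend from the inner cell mass of single embryos and can be kept in the naive state by 2i and LIF, in which the genome is broadly hypomethylated and the factors Nanog, Pou5f1, Sox2, Klf4 and Esrrb are expressed together. Lines derived side by side are known to differ in chromosome content, in imprinted and germline genes that DNA methylation controls, in X-linked reproductive homeobox (Rhox) genes, and in how far single cells move towards the formative state. Cultured cells also differ in amino acid stress, cell density and the remains of feeder fibroblasts. Each of these was described here by a list of genes.

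The libraries held 31095288 to 39916042 reads assigned to genes. The ESC marker Nanog lay at 685, 661 and 692 CPM in the Tdg+/+ lines, 636, 605 and 573 in the Tdg+/- lines and 618, 691, 705 and 667 in the Tdg-/- lines, and its SD was 0.07. The other ESC markers were present in every line but ranged more widely, differences between genotypes included. Pou5f1 ran from 1010 to 1900 CPM, Dppa5a from 2680 to 5170, Esrrb from 181 to 370 and Klf4 from 140 to 249. Sox2 ran from 263 to 398 CPM and Zfp42 from 148 to 246. Tdg itself followed the labels, at 85.3, 91.6 and 92.7 CPM in the Tdg+/+ lines, 39.99, 41.7 and 46.6 in the Tdg+/- lines and 7.71, 10.6, 10.3 and 8.54 in the Tdg-/- lines, with no overlap between genotypes. The summed level of 5 primitive endoderm markers lay between 2.05 and 3.65 CPM. The sum of 4 trophectoderm markers was 4.65 to 13 CPM, most of it from the keratin Krt7, with Elf5 at 0 in 4 lines. The blood marker Ptprc was at most 0.0936 CPM, and Cd68, a lysosomal protein of macrophages and other cells, was between 7.74 and 20.2 CPM. Feeder fibroblast markers were present in every line, and the sum of 7 of them ranged from 5.58 CPM in Tdg+/- line 2 to 49.7 CPM in Tdg+/- line 3. Thy1, a low member of the 7, did not follow the sum. It was at 0.987 CPM in Tdg+/- line 2 and 0.83 CPM in Tdg+/- line 3, and was highest in Tdg+/+ line 1 at 1.7 CPM.

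Most genes varied little between lines of a genotype. The median SD was 0.203, which is a 1.15-fold difference, with quartiles of 0.151 and 0.261. Counting reads at these depths would by itself give a median SD of 0.0427, and 93.6% of the genes (9013) had an SD more than 2 times the counting value. An SD of at least 0.5, the size used here for a variable gene, was reached by 223 of the 9634 genes (2.31%), and an SD of at least 1 by 59 (0.612%). Low genes were more often variable, with 88 of 1329 genes between 5 and 10 CPM (6.62%) against 14 of 1920 at 100 CPM or more (0.729%). All 223 variable genes exceeded 2 times their counting SD. Just past the size lay Olig1 at 0.5026 and Arhgef2 at 0.5062, and just short of it Zfp965 at 0.4999 and Smtnl1 at 0.4998. The level limit fell between Nudt17 and Gm45965 (5.007 and 5.012 CPM, kept) and Des and Ethe1 (4.998 and 4.997 CPM, left out).

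The steadiest protein-coding genes show how close separate lines can be. Arl6ip1, which shapes endoplasmic reticulum tubules, had an SD of 0.02, with 533, 538 and 522 CPM in the Tdg+/+ lines, 512, 505 and 506 in the Tdg+/- lines and 609, 601, 599 and 615 in the Tdg-/- lines. Utp3, a factor of ribosomal RNA processing, had an SD of 0.03 and stayed between 81.3 and 88.1 CPM over all 10 lines. Faf2 (0.02), Cmas (0.03) and Rnf34 (0.03), which act in protein turnover and sialic acid metabolism, were the other three.

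The genes of largest spread were mostly those whose transcripts share sequence with another gene. Reads were 80 bases long, so a transcript was cut into all windows of 80 bases, and each window was looked up in the transcripts of other genes. Of 328 genes with at least 50% of their windows in another gene, 64 were variable (19.5%), and 34 had an SD of at least 1. Among 6869 genes with no such window, 111 were variable (1.62%) and 12 had an SD of at least 1. Of the 328 genes, 197 were protein-coding and 131 were pseudogenes, and 20 and 44 of these were variable. Many of the variable pseudogenes were processed ones, copies of a messenger RNA that were inserted back into the genome. In all 60 of 222 pseudogenes of any kind (27.0%) were variable, and 35 of these had an SD of at least 1. Genes with a full name, leaving out pseudogenes and provisional symbols, gave 146 variable of 9171 (1.59%), of which 15 had an SD of at least 1.

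**Figure D1:**
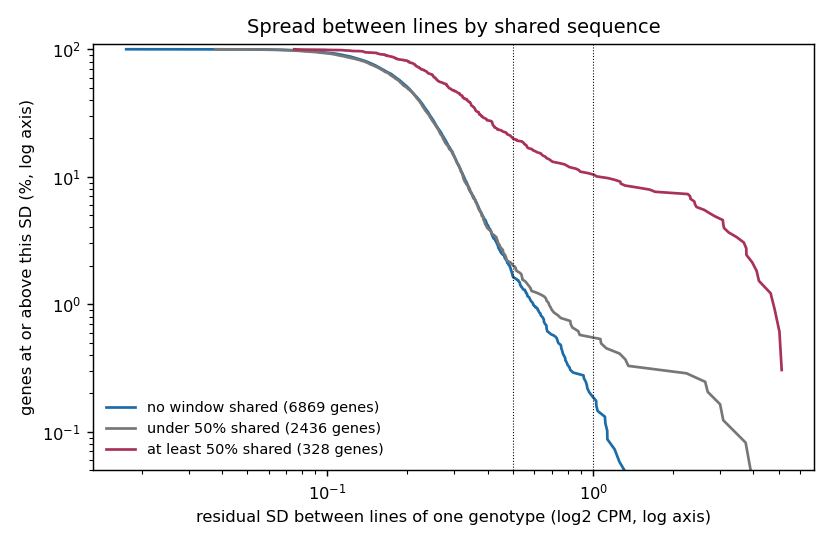
Percent of genes (vertical axis) at or above each SD of the residuals between lines (horizontal axis, SD of log2 CPM), both on log axes. The 9634 genes are drawn as separate curves by the share of their 80-base windows that also occur in another gene: none, under 50% or at least 50%. The curve of genes with at least 50% of windows shared extends to the largest SD, 5.12 for Rps23-ps1. In it 64 of 328 genes have an SD of 0.5 or more, against 111 of 6869 among genes with no shared window.

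The largest SD of all belonged to Rps23-ps1, a pseudogene on chromosome 3 of the ribosomal protein gene Rps23 on chromosome 13. It was at 104, 106 and 0 CPM in the Tdg+/+ lines, 0, 0 and 0 in the Tdg+/- lines and 49.6, 0, 90.3 and 0 in the Tdg-/- lines, an SD of 5.12. The gene was thus high in 4 lines and without a read in the other six lines, and no Tdg+/- line held any of its reads. Rps23 itself was steady at a mean of 1794 CPM (SD 0.20). The transcript sequences of the pair were identical over 425 aligned bases, as their first 100 coding bases show. Sequences here are shown because they carry the point that a read of 80 bases can or cannot be placed. They come from the GENCODE M21 transcripts (mouse GRCm38, 5′ to 3′), positions are counted from the first coding base of the parent, and capitals mark bases at which parent and copy differ.
Rps23, coding bases 1 to 100: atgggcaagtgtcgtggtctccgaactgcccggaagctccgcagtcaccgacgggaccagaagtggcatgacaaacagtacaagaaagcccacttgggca
Rps23-ps1: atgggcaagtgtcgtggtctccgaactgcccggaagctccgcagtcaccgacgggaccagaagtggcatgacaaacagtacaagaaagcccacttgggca

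Other copies differed from their parents at a few coding bases only. Rps18-ps5 and the ribosomal protein gene Rps18 differed at 3 of 459 bases (99.35% identity). Impdh2-ps and Impdh2, which encodes the rate-limiting enzyme of guanine nucleotide synthesis, differed at 4 of 1545 (99.74%). Gm10184 differed at 2 of 1590 (99.87%) from Kpna2, the gene of a nuclear import receptor. Over the whole transcripts, 47.2% of the windows of Rps18-ps5, 83.0% of those of Impdh2-ps and 92.4% of those of Gm10184 also occur in the parent. The 100-base stretches below start at coding base 1, 797 and 647 and hold 1, 2 and 2 of these differences.
Rps18: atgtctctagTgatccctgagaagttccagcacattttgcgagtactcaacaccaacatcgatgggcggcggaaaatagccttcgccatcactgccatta
Rps18-ps5: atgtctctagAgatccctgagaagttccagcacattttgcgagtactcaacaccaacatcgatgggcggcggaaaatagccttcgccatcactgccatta
Impdh2: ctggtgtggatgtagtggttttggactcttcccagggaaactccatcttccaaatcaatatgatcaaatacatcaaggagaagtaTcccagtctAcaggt
Impdh2-ps: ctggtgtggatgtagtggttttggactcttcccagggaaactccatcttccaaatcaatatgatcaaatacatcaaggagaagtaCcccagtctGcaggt
Kpna2: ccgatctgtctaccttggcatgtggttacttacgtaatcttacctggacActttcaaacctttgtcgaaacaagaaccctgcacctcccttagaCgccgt
Gm10184: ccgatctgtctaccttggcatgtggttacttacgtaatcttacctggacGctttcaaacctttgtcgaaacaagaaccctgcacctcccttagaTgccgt

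Gm10184 was at 261 CPM in Tdg+/- line 3 and at no more than 1.75 CPM in the other nine lines. Its parent Kpna2 had a mean of 666 CPM and an SD of 0.22. A single line stood apart in Rps6-ps4 as well, a copy that is identical to Rps6 over 750 bases, with 586 CPM in Tdg+/+ line 3 and none elsewhere. Impdh2-ps ran more evenly, at 1.70, 49.6 and 32.6 CPM in the Tdg+/+ lines, 8.78, 4.08 and 1.29 in the Tdg+/- lines and 20.4, 20.8, 10.4 and 9.55 in the Tdg-/- lines, an SD of 1.63 beside 0.09 for Impdh2. Tdg+/+ line 1 was low in Impdh2-ps against the other lines of its genotype.

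In some pairs of like level the sum was steady where each member was not, and Gm2446 and Gm2436 form such a pair. Gm2446 was at 0, 15.2 and 16.2 CPM in the Tdg+/+ lines, 17.6, 13.8 and 0 in the Tdg+/- lines and 0, 0, 2.35 and 0 in the Tdg-/- lines, and Gm2436 at 19.05, 0 and 0 CPM in the Tdg+/+ lines, 0, 0 and 9.89 in the Tdg+/- lines and 16.3, 22.4, 17.2 and 21.3 in the Tdg-/- lines. Where one was at 0 the other was high, in 9 of 10 lines, and their SDs of 3.96 and 3.47 fell to 0.274 for the sum. Fam177a and Fam177a2, with identical coding sequences over 624 bases, had SDs of 0.89 and 2.94, and 0.166 together. Chtf8, a subunit of the clamp loader for sister chromatid cohesion, appears under 2 gene identifiers, and ENSMUSG00000117748 was at 0.138 CPM in Tdg-/- line 2 and at 32.5 CPM in Tdg-/- line 1. Its SD was 2.32 alone and 0.115 together with ENSMUSG00000046691. Other pairs of like level kept their spread. The sum of Gm45965 (SD 0.59) and Gm38428 had an SD of 0.587, and that of Gm9864 (SD 0.69) and Gm10040 one of 0.620. Both share windows with further genes. Summed with all of them, 6 for Gm45965 and 5 for Gm9864, the SDs were 0.354 and 0.285.

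Over the 64 variable genes with at least 50% of windows shared, the median SD was 1.083 for the gene alone. Summed with the gene that shares most with it, the median SD was 0.231 and 55 of the 64 fell below 0.5. With all genes that share windows with it the median was 0.192 and 62 fell below. The partner lay on another chromosome for 38 of them. Where the partner is far more abundant, as Rps23 is, the sum follows the partner by arithmetic, and a steady sum is informative only for pairs of like level such as Gm2446 and Gm2436.

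**Figure D2:**
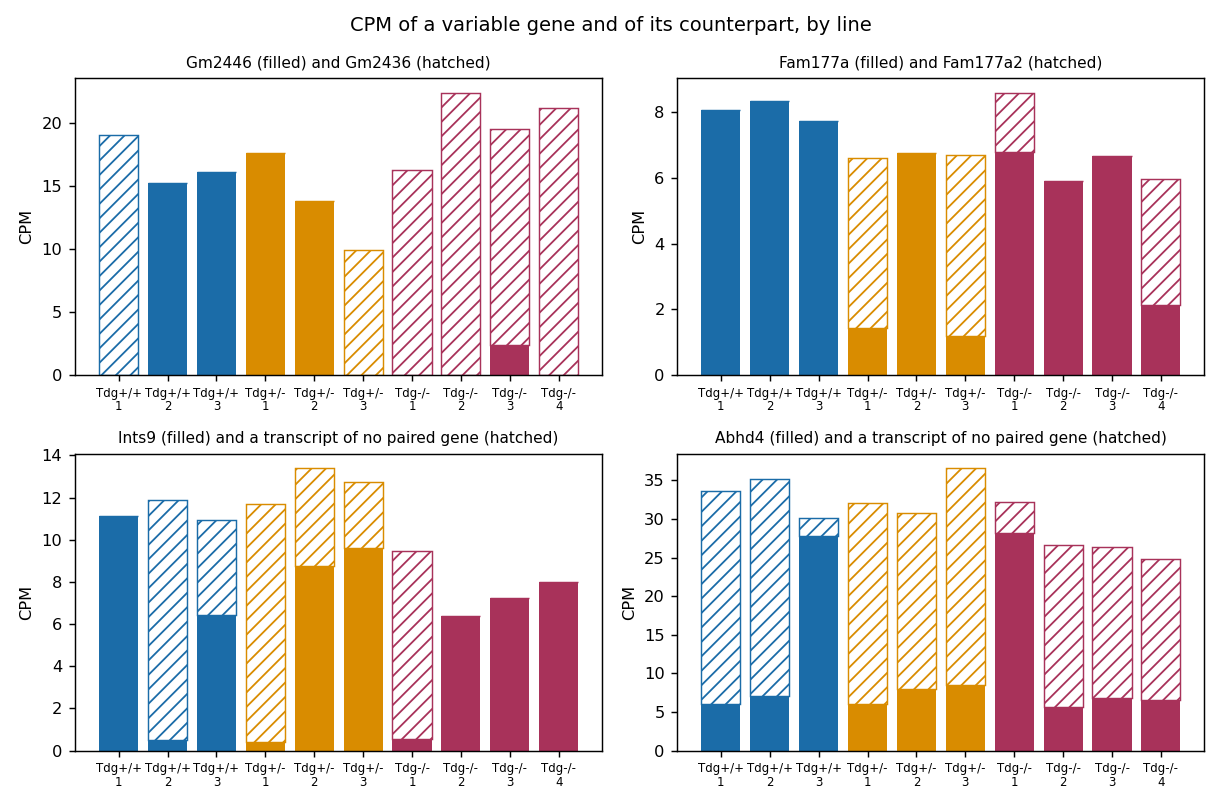
CPM in each line of 4 genes stacked with a counterpart: Gm2446 with Gm2436, Fam177a with Fam177a2, and Ints9 and Abhd4 each with a transcript that the annotation gave no gene name. The height of the stack varies little between lines (SD of the sum 0.274, 0.166, 0.169 and 0.140) while its division changes.

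Steady sums were also found for Ints9 and Abhd4, which share no window with a named gene. Ints9 encodes the Integrator subunit that pairs with the catalytic one in cleaving small nuclear RNAs, and was at 11.1, 0.516 and 6.43 CPM in the Tdg+/+ lines, 0.386, 8.75 and 9.62 in the Tdg+/- lines and 0.540, 6.37, 7.26 and 7.97 in the Tdg-/- lines. Its main transcript of 2674 bases, which holds 91.1% of its reads, had none in Tdg+/+ line 2, Tdg+/- line 1 and Tdg-/- line 1. A transcript of 2677 bases without a gene name in the annotation used was at 11.4, 11.3 and 8.94 CPM in these same lines. It was at 0 in Tdg+/+ line 1 and in Tdg-/- lines 2 to 4. The sum had an SD of 0.169 against 2.17 for Ints9 alone. Abhd4, a lipid hydrolase, was high at 27.8 CPM in Tdg+/+ line 3 and 28.2 CPM in Tdg-/- line 1 and at most 8.48 CPM in the other eight. An unnamed transcript of 2406 bases fell to 2.41 and 3.98 CPM in these lines from 18.3 to 28.2 CPM elsewhere, and the sum had an SD of 0.140. The pairs were found by searching 158 unnamed transcripts for 146 genes, taking for each gene the transcript that gave the steadiest sum. On the CPM scale, 27 genes had a sum with under 0.25 of the residual sum of squares of the gene alone. Ints9 and Abhd4 were the only ones under 0.1. The pairs were chosen for this opposite course, no sequence of the unnamed transcripts was compared, and the origin of the reads of both genes is uncertain.

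Further named genes also had a large SD, some of them mainly through 1 transcript. H2-T23, a nonclassical MHC class I gene whose product is read by receptors of natural killer cells, had the largest SD of the full symbols at 3.08. It was at 10.4, 0 and 0.968 CPM in the Tdg+/+ lines, 11.4, 9.61 and 0 in the Tdg+/- lines and 10.8, 6.84, 8.14 and 8.24 in the Tdg-/- lines. It was without reads in Tdg+/+ line 2 and Tdg+/- line 3, nearly so in Tdg+/+ line 3, and between 6.84 and 11.4 CPM in the others. Prex2, an exchange factor for the GTPase Rac, was at 9.68, 6.52 and 14.6 CPM in the Tdg+/+ lines, 11.1, 2.26 and 0.391 in the Tdg+/- lines and 19.7, 0.554, 0.680 and 0.687 in the Tdg-/- lines, and 92.7% of its reads lay on 1 transcript, with 649 of them in Tdg-/- line 1 and 16 to 23 in the other Tdg-/- lines. The kinase gene Sgk3 ran with it, from 8.70 CPM in Tdg+/- line 3 to 91.5 CPM in Tdg+/+ line 3.

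Dgkz, a diacylglycerol kinase, was at 10.8, 13.7 and 2.19 CPM in the Tdg+/+ lines, 12.4, 7.30 and 15.3 in the Tdg+/- lines and 7.83, 9.88, 1.28 and 1.82 in the Tdg-/- lines. Its transcript of 3109 bases, with 70% of the reads, had none in Tdg+/+ line 3 and Tdg-/- lines 3 and 4. Lpin1, a phosphatidate phosphatase of lipid synthesis, was highest in Tdg+/- line 3 at 48.2 CPM, where a transcript of 5433 bases held 1724 reads and had none in any other line. Without that line its range was 2.08 to 15.1 CPM. In Dgkz and Lpin1 a main transcript was thus listed at 0 in some lines, whereas that of Prex2 kept at least 10 reads in every line. How reads were divided among transcripts was not tested.

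Several other genes with no shared window took intermediate levels as well as high and low ones. Id3, an inhibitor of basic helix-loop-helix factors and a target of BMP signaling, had the largest SD of the full symbols with no shared window after Ints9 and Prex2 (1.36). Its levels were 2.31, 14.9 and 13.2 CPM in the Tdg+/+ lines, 2.08, 9.61 and 15.8 in the Tdg+/- lines and 6.99, 42.4, 21.1 and 33.1 in the Tdg-/- lines. Within each genotype line 1 was lowest, and the Tdg-/- lines 2 and 4 were highest. Enox1 had the same low lines, at 13.7, 34.5 and 38.1 CPM in the Tdg+/+ lines, 10.2, 40.8 and 46.4 in the Tdg+/- lines and 22.5, 83.4, 42.5 and 62.8 in the Tdg-/- lines. Slc39a14, a zinc and iron importer, was lowest in Tdg+/- line 1 at 2.31 CPM and reached 18.4 CPM in Tdg-/- line 2. Nt5e, the ecto-nucleotidase that makes adenosine, ran from 2.49 to 10.8 CPM in the same lines.

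Another set was lowest in Tdg+/+ line 1. The neurofilament gene Nefm was at 0.607 CPM there, and between 4.86 and 9.54 CPM in the other nine lines. Otx2, the homeobox factor that leads cells out of the naive state, was at 7.19, 29.5 and 43.8 CPM in the Tdg+/+ lines, 17.2, 8.75 and 11.2 in the Tdg+/- lines and 22.97, 23.9, 37.8 and 21.3 in the Tdg-/- lines. It was lowest in Tdg+/+ line 1 and highest in Tdg+/+ line 3, so that its spread in Tdg+/+ covered the whole range of the series. Tmem267, Ube2l6, Mep1b and Ildr1 were likewise lowest in this line, and Ildr1, a receptor of tricellular junctions, was at 9.92 CPM there against 35.8 and 38.6 CPM in its genotype. Tmem267, Ube2l6 and Ildr1 were also lowest of their genotype in Tdg-/- line 1, where Ildr1 was at 17.99 CPM. Cyct, the testis form of cytochrome c, went the other way, with 42.7 CPM in Tdg+/+ line 1 against 7.74 and 11.4 CPM.

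Adam23, a cell surface protein of the ADAM family without protease activity, stood apart in 3 lines of different genotypes. It was at 27.8, 8.23 and 40.02 CPM in the Tdg+/+ lines, 56.8, 54.5 and 12.3 in the Tdg+/- lines and 30.05, 14.9, 35.2 and 45.2 in the Tdg-/- lines, so that Tdg+/+ line 2, Tdg+/- line 3 and Tdg-/- line 2 were each lowest in their genotype. Wdfy1, an endosomal adaptor in Toll-like receptor signaling, was high in Tdg+/+ line 3 (27.3 CPM), Tdg+/- line 1 (27.8 CPM) and Tdg-/- lines 3 and 4 (30.4 and 26.9 CPM), with no other line above 11.8 CPM. Neu3, a ganglioside sialidase, was highest in Tdg+/- line 2 at 33.9 CPM and lowest in Tdg+/+ line 3 at 2.37 CPM.

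**Figure D3:**
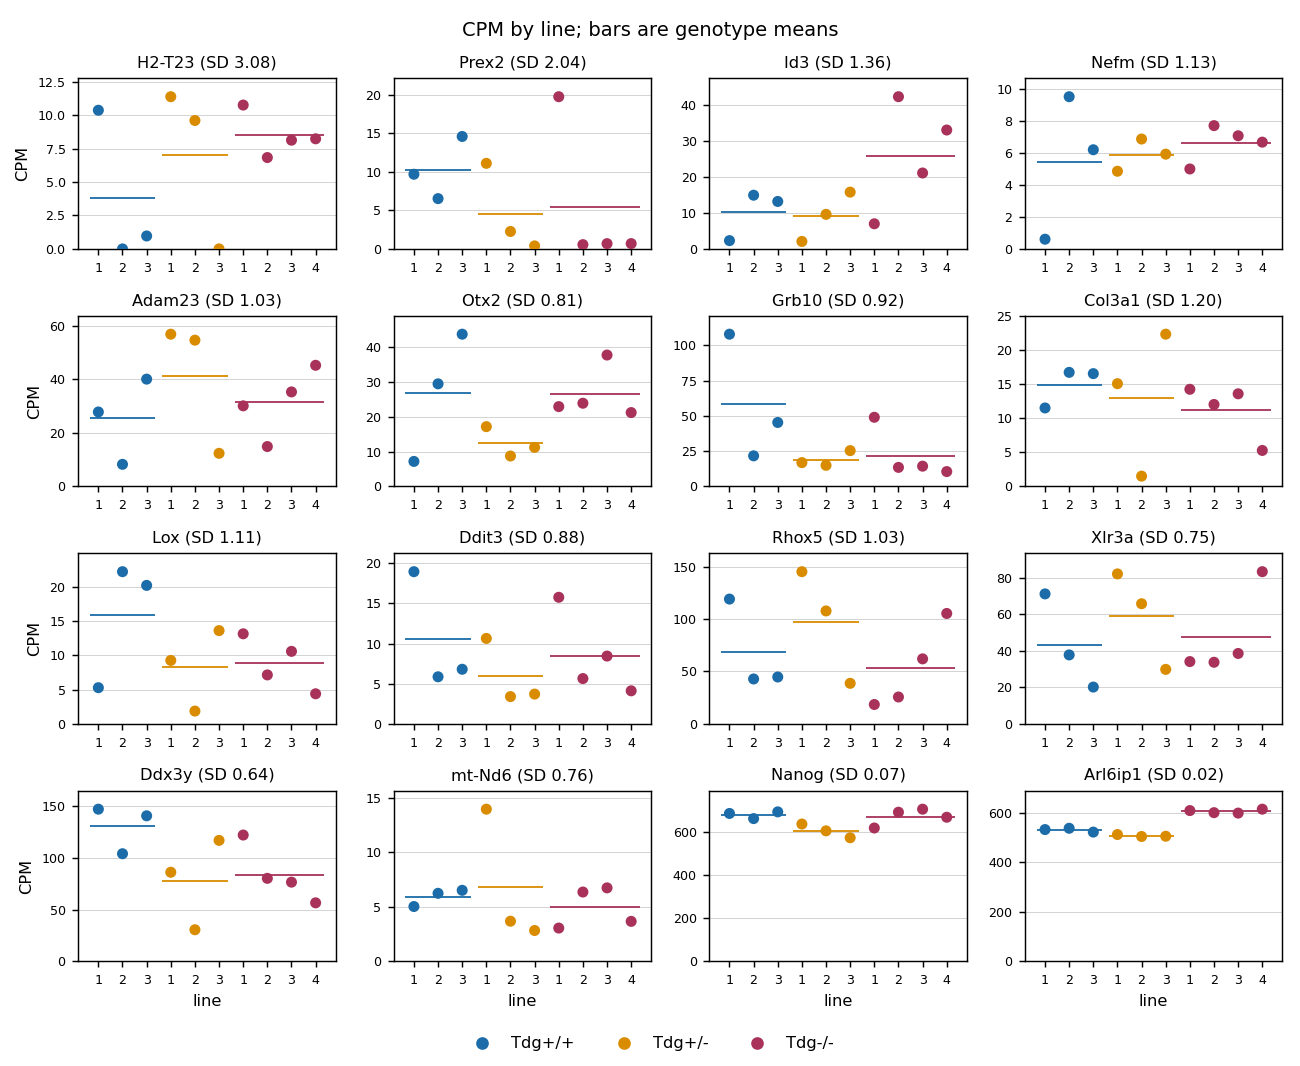
CPM of 14 variable genes and of the steady genes Nanog and Arl6ip1 in the 10 lines, 1 panel per gene with its own axis, points coloured by genotype and bars at the genotype means. H2-T23 and Prex2 fall to near 0 in some lines, Id3 is lowest in line 1 of each genotype, and Nefm and Otx2 are lowest in Tdg+/+ line 1.

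The functions of the variable genes were described by lists. Among all genes 2.31% were variable and the median SD was 0.203, and each list is given beside these values. No variable gene was found among 38 cytosolic ribosomal proteins (median SD 0.198), 28 replication-dependent histones (0.197), 21 mitosis genes (0.158), 11 heat shock genes (0.190) and 14 genes of the DNA methylation machinery (0.218). At the share over all genes such lists would hold at most about 1, so a count of 0 is near the background. Among 20 lysosome genes Gpnmb was variable, and Vegfa was among 24 glycolysis and hypoxia genes. In 20 naive pluripotency factors 1 was variable, Dppa3 (SD 0.53), the protector of maternal methylation, which was at 125, 48.8 and 54.2 CPM in the Tdg+/+ lines, 115, 100.4 and 66.3 in the Tdg+/- lines and 49.7, 41.6, 37.96 and 72.6 in the Tdg-/- lines. Gastrulation genes, 2-cell-like genes, Hox genes and polycomb targets, blood genes and X inactivation centre genes had no more than 2 members each at the level used.

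The feeder fibroblast list, of collagens and other matrix genes, had 7 variable genes of 10 and a median SD of 0.687. Col3a1, the type III collagen, was at 11.5, 16.8 and 16.6 CPM in the Tdg+/+ lines, 15.1, 1.51 and 22.4 in the Tdg+/- lines and 14.3, 12.04, 13.6 and 5.28 in the Tdg-/- lines. Col1a2 followed, from 1.04 CPM in Tdg+/- line 2 to 11.9 CPM in Tdg+/- line 3. Thbs1 and the collagen cross-linking enzyme Lox were lowest in Tdg+/- line 2 too, at 1.40 and 1.87 CPM. The mean residual of the list was -0.99 in that line, with 1 of 10 members above the genotype mean, and 0.83 in Tdg+/- line 3, with 9 above. Tdg-/- line 4 and Tdg+/+ line 1 were low as well (-0.49 and -0.59). The summed level of the 7 defining markers, 5 of which lay under the level limit, was 45.3 CPM in Tdg+/+ line 2 and 13 CPM in Tdg-/- line 4, and no line had any of the 7 at 0. Whether these reads come from remaining feeder cells or from the ESCs was not tested.

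All 3 kept Y-linked genes were variable. Ddx3y, an RNA helicase, was at 147, 104 and 141 CPM in the Tdg+/+ lines, 86.2, 30.6 and 117 in the Tdg+/- lines and 122, 80.3, 76.6 and 56.6 in the Tdg-/- lines. Uty, a histone demethylase paralog, was at 62.4, 59.4 and 85.7 CPM in the Tdg+/+ lines, 46.3, 17.5 and 62.2 in the Tdg+/- lines and 61.6, 50.8, 47.8 and 40.1 in the Tdg-/- lines. Both were lowest in Tdg+/- line 2, which also had the lowest sum of feeder markers. Kdm5d, a male marker under the level limit, went the other way. It was at 1.45 CPM in Tdg+/- line 2, its highest level, and at 0.979 and 1.22 CPM in Tdg+/- lines 1 and 3. Eif2s3y, a translation initiation factor subunit, was lowest in Tdg+/- line 2 and Tdg-/- line 4 (19.195 and 24.3 CPM) and was highest in Tdg+/+ line 1 (117 CPM), where Uty was not raised (62.4 CPM). The mean residual of the 3 kept Y-linked genes and of the feeder list thus had the same sign in Tdg+/- lines 1 to 3 and in all Tdg-/- lines. It did not in Tdg+/+ lines 1 and 2. Whether Y-linked levels reflect Y chromosomes, feeder cells or expression per cell cannot be told apart in these bulk samples, since fewer cells of a kind and less RNA per cell give the same reading.

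Rhox and X-linked testis genes had 5 variable members of 6 and a median SD of 0.733. Rhox5, a homeobox gene under the control of DNA methylation, was at 119, 42.9 and 44.8 CPM in the Tdg+/+ lines, 145, 107.8 and 38.7 in the Tdg+/- lines and 18.5, 25.7, 62.1 and 105 in the Tdg-/- lines. Tdg+/- line 1 and Tdg+/+ line 1 were highest and Tdg-/- line 1 was lowest. Xlr3a and Xlr3b, neighbouring lymphocyte-regulated genes on the X chromosome that share 31.1% and 43.1% of their windows with other genes, had SDs of 0.75 and 0.83. Xlr3a reached 83.2 CPM in Tdg-/- line 4 and at most 38.5 CPM in the other Tdg-/- lines. All 6 genes of the list were above the genotype mean in Tdg+/- line 1 and Tdg-/- line 4, and none in Tdg+/- line 3 and Tdg-/- line 1.

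Genes that DNA methylation is known to control elsewhere in the genome were less uniform. Of 13 germline genes 3 were variable, Rpl10l, Tuba3a and Hormad1. Rpl10l, a testis ribosomal protein, was at 37.8 CPM in Tdg+/+ line 1 and between 6.55 and 19.7 CPM in the others. Hormad1, a meiotic chromosome axis protein, was at 12.04, 8.01 and 19.04 CPM in the Tdg+/+ lines, 26.1, 38.2 and 15.3 in the Tdg+/- lines and 21.4, 11.8, 14.01 and 19.9 in the Tdg-/- lines. Of 35 imprinted genes 5 were variable (14.3%), Grb10, Xlr3b, Slc38a4, Peg10 and Phlda2. Grb10, an adaptor that restrains insulin signaling, was at 107.98, 21.7 and 45.4 CPM in the Tdg+/+ lines, 16.9, 14.96 and 25.4 in the Tdg+/- lines and 49.03, 13.5, 14.3 and 10.5 in the Tdg-/- lines. It was highest in Tdg+/+ line 1 and Tdg-/- line 1 and differed by more than 4-fold within both genotypes. Slc38a4, an amino acid transporter, ran from 10.1 to 34.9 CPM within the Tdg-/- lines. The mean residual of all 35 imprinted genes stayed within -0.08 to 0.06, so the list did not move as a block in any line.

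The ATF4 list holds genes of the amino acid and integrated stress response, in which the factor ATF4 induces amino acid synthesis, transport and, with Ddit3, a stress program. Of 24 kept members 5 were variable (20.8%), with a median SD of 0.289. Ddit3, the stress factor CHOP, was at 18.96, 5.87 and 6.80 CPM in the Tdg+/+ lines, 10.6, 3.40 and 3.71 in the Tdg+/- lines and 15.8, 5.65, 8.45 and 4.12 in the Tdg-/- lines. Chac1, which breaks down glutathione, was at 12.2, 7.25 and 10.5 CPM in the Tdg+/+ lines, 6.97, 5.14 and 4.35 in the Tdg+/- lines and 18.95, 3.35, 7.23 and 4.12 in the Tdg-/- lines, so that Tdg-/- line 1 had more than 4 times the level of Tdg-/- line 2. Gpt2, a mitochondrial alanine transaminase, had the same extremes among the Tdg-/- lines, at 196 and 66.7 CPM. Stc2, a secreted stress glycoprotein, was at 21.8 and 8.33 CPM in them. The whole list moved with these genes, with 22 of 24 members above the genotype mean in Tdg+/+ line 1 and 21 in Tdg-/- line 1, against 1 in Tdg-/- line 2 and 2 in Tdg-/- line 4.

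The promoters of the list were searched for TGATGNAA, the core that ATF4 binds together with C/EBP factors, on both strands of the 300 bases from 250 before to 50 after the start (RefSeq, GRCm38.p6). Of 20 members with a RefSeq promoter, 6 held it (30%), against 1219 of 27025 genes (4.51%) and 2.55% of the kept genes with a promoter. Chac1 and the asparagine synthetase gene Asns hold it at -193 and -23 from the start, and their promoters are shown with the match in capitals to place it, in Chac1 as its reverse complement. The windows of Ddit3, Stc2 and Gpt2 held no match. The list was drawn up from general knowledge of this response, so its higher share was in part set by that choice. The share says nothing of the spread between lines. These are descriptions of letters, and binding was not measured.
Chac1 promoter, chr2:119350992-119351291, plus strand: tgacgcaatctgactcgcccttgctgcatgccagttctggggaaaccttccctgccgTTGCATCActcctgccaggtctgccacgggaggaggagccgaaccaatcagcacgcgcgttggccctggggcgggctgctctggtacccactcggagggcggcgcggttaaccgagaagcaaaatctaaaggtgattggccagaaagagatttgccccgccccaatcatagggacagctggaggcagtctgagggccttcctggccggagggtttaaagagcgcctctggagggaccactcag
Asns promoter, chr6:7693160-7693459, minus strand: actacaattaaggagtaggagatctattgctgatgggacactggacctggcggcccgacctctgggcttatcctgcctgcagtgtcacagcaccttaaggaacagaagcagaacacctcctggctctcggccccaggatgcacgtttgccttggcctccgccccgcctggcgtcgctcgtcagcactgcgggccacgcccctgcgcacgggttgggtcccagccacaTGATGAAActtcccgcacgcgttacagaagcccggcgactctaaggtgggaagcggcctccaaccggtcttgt

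Genes of the early lineages had 1 or 2 variable members each. In 13 formative and primed genes these were Otx2 and Nkx1-2, in 6 primitive endoderm genes Fst and Col4a1, in 10 genes of Nodal signaling Lefty1, and in 5 trophectoderm genes the keratin Krt7. Lefty1, a Nodal inhibitor, was at 26.4, 27.1 and 21.8 CPM in the Tdg+/+ lines, 17.7, 33.9 and 43.9 in the Tdg+/- lines and 12.5, 37.7, 29.2 and 27.3 in the Tdg-/- lines, and Tdg-/- line 1 was lowest. Fst, the activin inhibitor follistatin, was lowest in Tdg+/+ line 1 at 12.6 CPM. Krt7 was at 12.5 and 12.2 CPM in line 1 of Tdg+/+ and Tdg+/- and at most 7.03 CPM elsewhere. The mean residual of the formative list was -0.34 in both of these lines, with 5 of 13 members above the genotype mean in Tdg+/+ line 1 and 2 of 13 in Tdg+/- line 1.

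Mitochondrially encoded genes varied together. Of 12 genes 2 were variable, the neighbours mt-Nd5 and mt-Nd6, subunits of respiratory complex I. mt-Nd5 was at 42.2, 41.3 and 52.4 CPM in the Tdg+/+ lines, 75.4, 29.01 and 23.03 in the Tdg+/- lines and 23.3, 34.3, 36.5 and 24.2 in the Tdg-/- lines, highest in Tdg+/- line 1. mt-Nd6, on the opposite strand, was at 13.97 CPM in that line and at most 6.75 CPM elsewhere. Of the 12 genes, 11 were above the genotype mean in Tdg+/- line 1 and all 12 in Tdg+/+ line 3, against 2 in Tdg+/+ line 1 and none in Tdg+/- line 3. The share of reads in these genes ran from 0.899% in Tdg+/+ line 1 to 1.678% in Tdg+/+ line 3. MHC class I genes had H2-T23 as their single variable member of 5.

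A list without a variable member could still move as a block. The 38 ribosomal proteins had a mean residual of -0.38 in Tdg-/- line 1, where 0 of 38 were above the genotype mean, and 35, 37 and 31 were above it in Tdg-/- lines 2, 3 and 4. This residual is relative to the other Tdg-/- lines. Rpl3 was at 2705 CPM in Tdg-/- line 1 and 3760 to 4251 CPM in Tdg-/- lines 2 to 4. The Tdg+/+ and Tdg+/- lines lay at 2418 to 2845 CPM. Rps6 was at 2568 CPM in Tdg-/- line 1, 3119 to 3619 CPM in Tdg-/- lines 2 to 4 and 2172 to 2696 CPM in the other genotypes. The SD of the list mean over the lines was 0.174, and 0.0555 without Tdg-/- line 1. Respiratory chain genes (28, nuclear) were also low in that line (-0.255, 2 above), whereas 23 of 27 cholesterol synthesis genes were above. The replication-dependent histones were above the genotype mean in 27 of 28 genes in Tdg+/+ line 1 and in 1 of 28 in Tdg+/+ line 3.

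**Figure D4:**
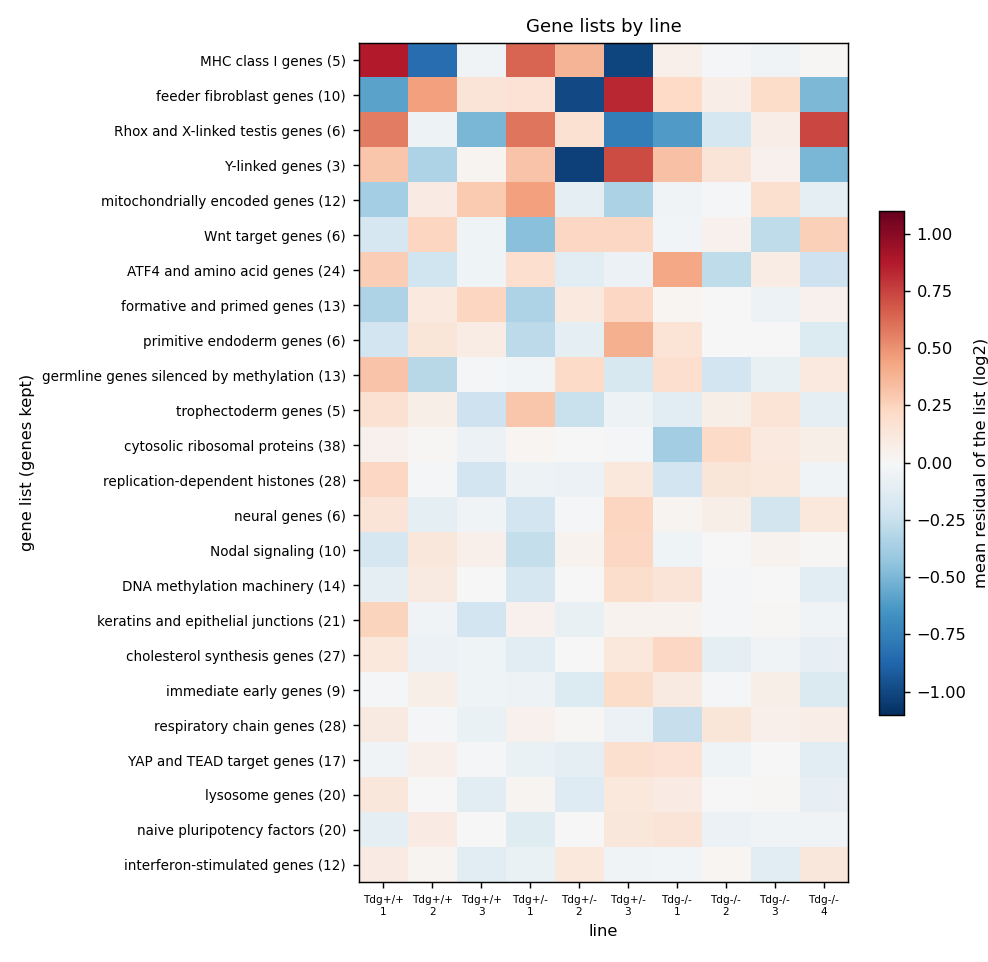
Mean residual (log2, colour from -1.1 to 1.1) of 24 gene lists in each of the 10 lines. Feeder fibroblast genes are lowest in Tdg+/- line 2 (-0.99) and highest in Tdg+/- line 3 (0.83), and ribosomal proteins are lowest in Tdg-/- line 1 (-0.38).

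Much of the variation lay along few shared directions. The first 4 principal components of the residuals held 31.6%, 24.2%, 17.4% and 9.91% of the residual sum of squares over all genes, where at most 7 exist. Over the 9171 full symbols they held 36.6%, 25.9%, 17.4% and 10.5%, and each was led by few lines. The first set Tdg-/- line 1 (score 0.81) against Tdg-/- lines 2 and 4 (-0.40 and -0.27). Tdg+/+ line 1 led the second (0.71), Tdg+/- line 1 the third (0.68), and Tdg+/- line 2 stood against Tdg+/- line 3 on the fourth (0.59 and -0.46). Tdg-/- line 1 alone held 25.1% of the sum of squares and Tdg+/+ line 1 held 16.2%, where equal shares would be 10.7% and 9.52%. Of the 223 variable genes, 74 had their largest residual in Tdg+/+ line 1 and 43 in Tdg-/- line 1.

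These directions moved with the composition of the transcripts. Across genes, which are not independent, the residual of Tdg+/+ line 3 had a Spearman correlation of -0.65 with GC content, that of Tdg+/- line 3 one of 0.45 and that of Tdg+/+ line 1 one of 0.42. With transcript length it was 0.49 in Tdg-/- line 1 and -0.48 in Tdg-/- line 2. The scaling factors of TMM were 0.909 to 0.930 in Tdg-/- lines 2, 3 and 4 and 1.04 in Tdg-/- line 1. In the Tdg+/+ and Tdg+/- lines they were 1.011 to 1.061. Pou5f1, the core pluripotency factor, was at 1135 CPM in Tdg-/- line 1 and between 1577 and 1899.5 CPM in the other three. The Tdg+/+ lines lay at 1011 to 1218 CPM. Ribosomal protein genes, which were below the genotype mean in Tdg-/- line 1, have short transcripts. The part of GC content, length or library preparation in these directions was not tested.

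Some lines of different genotypes resembled each other. Over the full symbols the correlation of residuals, given as a description across genes, was 0.51 between Tdg+/- line 2 and Tdg-/- line 4, 0.42 between Tdg+/+ line 2 and Tdg+/- line 3 and 0.33 between Tdg+/- line 1 and Tdg-/- line 3. It was lowest, at -0.33, between Tdg+/- line 3 and Tdg-/- line 4. The first of these pairs shared a low sum of feeder markers, low levels of the 3 kept Y-linked genes and the higher chromosome 11 described below.

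The 200 genes of largest SD, down to 0.533, were clustered by the correlation of their residuals, and 18 clusters of at least 4 genes held 179 of them. The largest, with 30 genes, was low in Tdg+/+ line 1 and held Nefm, Otx2, Tmem267, Ube2l6, Mep1b, Cntnap2, the securin gene Pttg1 and 14 pseudogenes. A second of 23 genes was low in line 1 of all 3 genotypes, with mean residuals of -1.38, -1.12 and -1.08, and had a median correlation of 0.851 between its members. It held Id3, Enox1, Slc39a14, Pnp2, Nt5e, Nkx1-2, Ildr1, the proapoptotic gene Pmaip1, Nefl, Fst, P2ry2 and Trh. A cluster of 14 ran opposite to it, with means of 0.57, 0.56 and 0.90 in the same lines, and held Grb10, Ddit3, Chac1, Gng2, the endoplasmic reticulum gene Wfs1, the angiogenic factor Vegfa and the glucocorticoid target Tsc22d3. Vegfa was at 20.6, 13.96 and 17.04 CPM in the Tdg+/+ lines, 17.7, 6.42 and 8.33 in the Tdg+/- lines and 19.5, 8.39, 13.6 and 8.51 in the Tdg-/- lines, so that line 1 was highest in each genotype.

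A cluster of 20 genes was high in Tdg+/+ line 1 (mean residual 1.65), with Cyct, Rpl10l, Galnt7, Klhl22, the tight junction gene Cldn6, the mitochondrial leucyl-tRNA synthetase Lars2, Phlda2, Emb and Slc12a8. It also held 4 pseudogenes, which enter its mean, and Cyct and Rpl10l had residuals of 1.45 and 1.25 in that line. Another of 15 held the matrix genes Col3a1, Col1a2, Thbs1, Lox and Fbln2 together with Ddx3y and Uty and was lowest in Tdg+/- line 2 (-1.83). It also held Gm10184 and Gm7367, which share most of their windows with other genes. mt-Nd5 and mt-Nd6 fell with S100a1, S100a13, Gulp1, Ufsp2 and Wdfy1 in a cluster high in Tdg+/- line 1 (1.62). Its mean includes Gm28438, a pseudogene with 98.87% of its windows in mt-Nd3. The residuals of mt-Nd6, Wdfy1 and Ufsp2 in Tdg+/- line 1 were 1.39, 1.31 and 1.07. Rhox5, Xlr3a, Xlr3b, Xlr4a and Slc38a4 fell together in another cluster. H2-T23, Adam23 and Hormad1 fell together, low in Tdg+/+ line 2 (-1.93) and Tdg+/- line 3 (-2.14), and with them Gm49496. The mean of a cluster is taken over all its members, pseudogenes and genes that share windows included. Since the genes were chosen for their spread in these lines, the clusters describe the lines and carry no test.

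Among variable genes 18 pairs were neighbours on a chromosome with no other kept gene between them. Their residuals correlated most in mt-Nd5 and mt-Nd6 (0.98), Xlr3a and Xlr3b (0.96) and Uty and Ddx3y (0.95). Next came the unprocessed pseudogenes Gm28437 and Gm10925 (0.913) and then S100a1 and S100a13 (0.905). All windows of Gm28437 also occur in mt-Co3 and all of Gm10925 in mt-Atp6, so the origin of their reads is uncertain. Nefm and Nefl, which encode partners of the same filament, correlated at 0.86. Gm11605 and Adam23 ran in opposite directions (-0.57).

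Whole chromosomes also differed between lines. In Tdg+/+ line 1 the median residual of the 313 genes of chromosome 16 was 0.26, and 274 of them (87.5%) were above the genotype mean. Against the mean of Tdg+/+ lines 2 and 3 the median gene of chromosome 16 was 1.32-fold higher. The excess ran along the whole chromosome, since the medians of 6 consecutive blocks of about 50 genes were all between 0.212 and 0.308. With 3 surrogate variables removed the median was 0.0598. Some genes of the chromosome went against it, such as Ildr1 above, while Klhl22, an adaptor of a ubiquitin ligase in cell division, was raised there at 66.2 CPM against 30.5 and 23.1 CPM.

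On chromosome 11, with 782 genes, the differences were smaller and involved 4 lines. The median residual was 0.12 in Tdg+/- line 2 and 0.14 in Tdg-/- line 4, with 643 (82.2%) and 637 (81.5%) of the genes above the genotype mean. All 16 blocks were above 0 in both lines, between 0.0715 and 0.172 in Tdg+/- line 2 and between 0.0545 and 0.172 in Tdg-/- line 4. Tdg+/- line 1 and Tdg-/- line 3 were correspondingly low, with 219 (28%) and 139 (17.8%) of the genes above the mean. Against the other lines of their genotype, Tdg+/- line 2 was 1.14-fold and Tdg-/- line 4 1.13-fold higher at the median gene. A residual is measured against the other lines of the genotype, so a higher line lowers the rest, and without Tdg+/- line 1 the median of Tdg+/- line 2 was 0.0662. The largest median of any other autosome was 0.11, for chromosome 15 in Tdg-/- line 1, and DNA copy number was not measured.

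**Figure D5:**
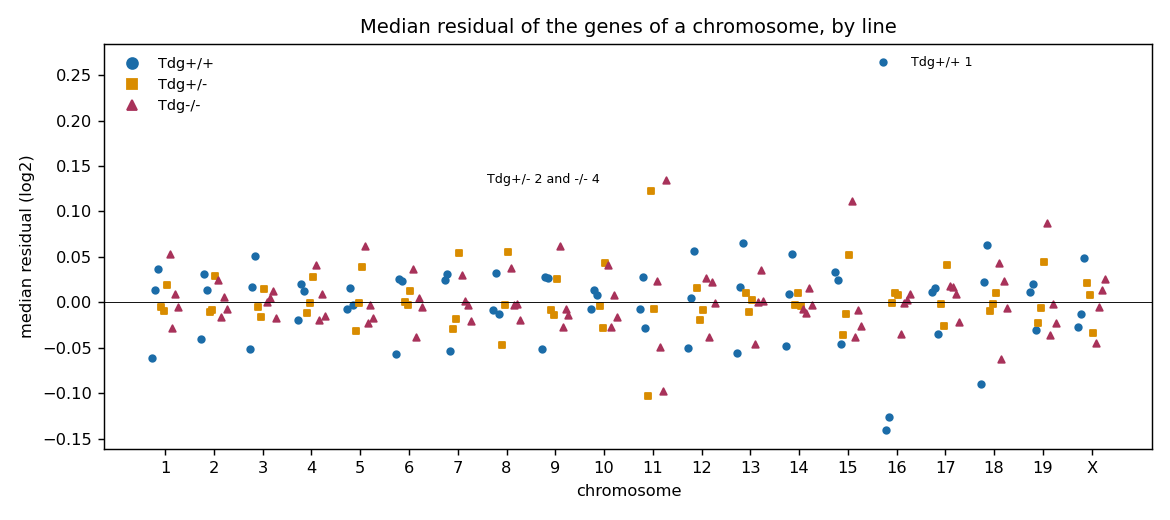
Median residual (log2) of the genes of chromosomes 1 to 19 and X in each line. Chromosome 16 in Tdg+/+ line 1 (0.26) is farthest from 0, and chromosome 11 is raised in Tdg+/- line 2 (0.12) and Tdg-/- line 4 (0.14).

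Outside chromosomes 11 and 16, the largest median of 169 blocks was that of a stretch of chromosome 13 in Tdg+/+ line 1, from Tut7 to Zfp748. Its 53 genes had a median residual of -0.37, and 46 were below the genotype mean. The stretch holds a cluster of zinc finger genes, and all 19 with a Zfp symbol were below, with residuals from -0.79 to -0.05 and a median of -0.47. The other 34 genes had a median of -0.33 with 27 below. None of the 19 was variable by the size used. The 19 were looked at after the block had been seen.

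The spread of a gene in some lines was set against its spread in others that had no part in choosing it. The 100 full symbols of largest SD in the Tdg+/+ and Tdg+/- lines had a median SD of 0.474 in the Tdg-/- lines, against 0.190 for all. Of these 47 reached 0.5 there, where 2.06% of all full symbols did. The 100 chosen in the Tdg-/- lines had a median SD of 0.526 in the other lines against 0.178, and 52 of them reached 0.5, against 2.44% of all. Without genes that share a window, 41 and 47 of 100 did. Over all genes, pseudogenes included, it was 64 and 66, with 40 for the first choice without Tdg-/- line 1 and 47 for the second without Tdg+/+ line 1. Across all 9171 full symbols the SDs in both sets of lines had a rank correlation of 0.15, so that the repeat lay with the genes at the top. Low genes have larger SDs in every set of lines, and this share of the repeat was not tested.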

How the data were processed

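RNA was measured by stranded, ribosome-depleted total RNA sequencing with 80-base single-end reads. Per the labels and the study's methods, the authors quantified transcripts with Salmon 0.8.1 against an Ensembl mouse transcriptome (GRCm39), and deposited an estimated count and a TPM value per transcript for each line. Of 116357 transcripts, 115153 (98.97%) were paired with genes through GENCODE M21 (GRCm38), used for names, chromosomes and sequences, and 0.472% to 0.499% of the reads lay on the others. Estimated counts were summed per gene, rounded to whole reads and turned into log2 CPM with edgeR 4.0.16 (TMM, prior count of 2, R 4.3.3). The level limit was a mean of 5 CPM. All else was computed in Python 3.11.15, and the steps were tested on simulated data.

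Lines were grouped by the genotype in the labels. Residuals, pooled SDs, principal components and average-linkage clusters (cut at r = 0.6) were computed over all lines as descriptions. Counting SDs assume Poisson reads and cover counting error only; library totals of 31095288 to 39916042 reads set them. Salmon divides reads that match several transcripts by an estimate, which can move between libraries. Alternatives were library totals, DESeq2 1.42.0 size factors and variance-stabilized values, other prior counts and level limits, the deposited TPM, the edgeR biological coefficient of variation, subsets of genes, 3 surrogate variables (sva 3.50.0), the replicate number as a block, and leaving out each line.

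Named genes were the 40 full symbols of largest SD, up to 4 variable members of each list, the 10 largest loadings of either sign on the first 3 components, the 5 steadiest genes, Tdg and genes at the limits; others were chosen after their values were seen. Genes, lists and sizes were chosen with earlier results of these data known. The text gives values for a part of the named genes.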

Additional observations from a re-analysis of the deposited data

Results flagged for a closer look

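With 3 lines in Tdg+/+ and Tdg+/-, only the 4 Tdg-/- lines were screened for a line far from the rest, by the gap between the highest or lowest value and its neighbour divided by the range of the group, held against Dixon's 95% limit. Of 133 values looked at, which were the named genes, chromosome medians and list means, 13 passed (9.77%), where chance would give about 5% and the named genes had been picked for large spread. Tdg-/- line 1 was the line apart in 9 of them. It was lowest for Ints9 (0.914), Tmem267 (0.881), Ildr1 (0.898), Pmaip1 (0.918), Cntnap2 (0.847) and Mup6 (0.852), and highest for Prex2 (0.943), Abhd4 (0.890) and the mean of the naive pluripotency factors (0.875). Tdg-/- line 2 was lowest for Chtf8 (0.905) and Lpin1 (0.921). Tdg-/- line 4 was lowest for Fam177a (0.880) and highest for Xlr3a (0.852), and Tdg-/- line 3 stood apart in none. For Chtf8, Fam177a, Ints9 and Abhd4, the report gives a counterpart whose sum with the gene was steady.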

How the results depend on the processing

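Over 15 results 355 alternative values were computed, 289 stayed within the spread or within 1.5 times of the value reported, 66 moved and 0 reversed. Only the chromosome medians could reverse, since the other results are SDs, counts or shares, which cannot change sign. With variance-stabilized values, a limit of 1 CPM, the deposited TPM, the biological coefficient of variation or 3 surrogate variables removed, the median SD was 0.179, 0.222, 0.243, 0.222 and 0.109. The count of genes with an SD of at least 0.5 was 136, 672, 493, 133 and 119 under these, 82 at a limit of 20 CPM, 146 for full symbols and 111 for genes with no shared window. The count at an SD of at least 1 was 38 with variance-stabilized values, 125 at 1 CPM, 24 at 20 CPM, 35 with the coefficient of variation, 24 for protein-coding genes, 15 for full symbols and 12 with no shared window. Of the 100 genes of largest SD, 47 were shared at 1 CPM, 37 at 20 CPM, 63 with TPM, 59 for protein-coding genes, 49 for full symbols and 38 with no shared window, where fewer or other genes enter. Genes chosen in the Tdg+/+ and Tdg+/- lines reached 0.5 in the Tdg-/- lines for 49% with variance-stabilized values, 33% at 20 CPM, 54% for protein-coding genes, 47% for full symbols and 41% with no shared window. Those chosen in the Tdg-/- lines did for 49%, 78% (1 CPM), 33%, 84% (replicate block), 52% (full symbols) and 46% (no shared window, ranked among all genes with none). The first component held 33.7%, 35.3% (TPM), 34.8% (protein-coding), 36.5% (surrogate variables), 36.0% (replicate block), 36.6% (full symbols), 36.9% (no shared window) and 37.7% (full symbols, scaled). Removing surrogate variables took chromosome 16 in Tdg+/+ line 1 to 0.0598. The between-line SD of the mean residual was 0.184 for feeder genes at 20 CPM, 0.511, 0.703 and 0.343 for the Rhox list (variance-stabilized, 1 CPM, surrogate variables), and 0.368, 0.134 and 0.109 for the ATF4 list (TPM, surrogate variables, replicate block). The cause of these moves was not tested. The subsets by symbol, by shared windows and the scaled components were chosen after seeing the data.

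Leaving out each line in turn gave a median SD of 0.163 to 0.213, 81 to 95 shared genes among the 100, 181 to 270 genes at 0.5 and 52 to 63 at 1. The shares carried over were 40% to 64% and 47% to 67%, and the first component held 33.2% to 38.0%. Chromosome 16 in Tdg+/+ line 1 gave 0.199 to 0.265, chromosome 11 0.0662 to 0.131 in Tdg+/- line 2 and 0.1 to 0.136 in Tdg-/- line 4, and the Y-linked genes -1.08 to -0.703 in Tdg+/- line 2. The lists gave 0.434 to 0.658 (feeder), 0.521 to 0.644 (Rhox), 0.206 to 0.303 (ATF4) and 0.0555 to 0.188 (ribosomal proteins).

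Over the full symbols, lines with the same replicate number in the labels were not in general the most alike. Of 9 pairs with the same number 4 correlated above 0.1 (range -0.202 to 0.307, against -0.332 to 0.511 in 24 other pairs), and 3 lines of 9 correlated best with their own number. All lines of numbers 1, 2 and 3 had residuals of the same sign in 25.2%, 27.7% and 20.8% of all genes. Among the variable genes the shares were higher, at 39.5%, 35.9% and 35%. The cluster of 23 genes described above was low, and that of 14 high, in line 1 of all 3 genotypes. Whether lines of the same number shared a batch was not tested. With the number as a replicate block, 215 genes had an SD of at least 0.5 and 58 of at least 1, and the median SD was 0.205. Tdg-/- line 4 is the only line with its number, so the block leaves it no residual. Depth limits little at these levels, since the median counting SD was 0.0427.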
